A study of Mus musculus with 4 samples.

Results

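Transcripts of 9 genes of retinoid synthesis, binding, clearance and reception were followed in adipocyte precursor cells, the stromal progenitors from which fat cells arise. The members were chosen by gene symbol as genes of this pathway. They are Aldh1a1, Aldh1a2, Aldh1a3, Rbp4, Crabp1, Crabp2, Cyp26b1, Rarb and Rarg, and all 9 were found among the 20207 genes of the series. The data are 4 RNA sequencing libraries, 2 labelled Per3 KO and 2 labelled WT, the WT mice being littermates. Every library came from young C57BL/6 mice at zeitgeber time 2, meaning 2 h into the light phase, and from primary adipose cells sorted as Sca1+ CD45- CD31-. The labels give neither the Per3 allele nor the animals behind each replicate, and the p-values below therefore speak only of the spread among these libraries, which may be technical.

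Retinol travels in blood bound to RBP4, is oxidised in cells to retinaldehyde by retinol dehydrogenases, and is then oxidised to retinoic acid by the ALDH1A enzymes. Retinoic acid is carried in the cytosol by CRABP1 and CRABP2, is removed by CYP26 hydroxylases, and acts through nuclear retinoic acid receptors (RARα, RARβ and RARγ) that pair with retinoid X receptors on DNA. In fat, retinoic acid given early blocks the differentiation of preadipocytes, and RBP4 is also secreted by adipocytes.

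Depth was 27950825 to 64964443 gene reads per library. Per3 itself had 193 and 768 reads in the libraries labelled Per3 KO 1 and Per3 KO 2, against 121 and 170 reads in WT 1 and WT 2. It was thus not lower under the KO label. The count covers the whole gene and cannot check a partial deletion, and the libraries are called KO-labelled below. Levels are given as RPKM (reads scaled by transcript length and library size, as deposited) between genes, and as CPM (reads per 1000000 after TMM scaling) between libraries. Precursor markers were abundant in all libraries, with Pdgfra at 211 and 453 CPM in KO-labelled libraries and at 355 and 246 CPM in WT libraries. The cells are a sorted population read in bulk, so fewer cells of a type and less RNA per cell cannot be told apart. Of the markers of other cells, the summed level of 10 hepatocyte genes was the most uneven, at 0.869 and 1447 CPM in Per3 KO 1 and Per3 KO 2 and at 272 and 46.5 CPM in WT 1 and WT 2.

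None of the members differed between genotypes past the test. The member with the largest separation was Cyp26b1, the retinoic acid hydroxylase, at 4.004 ± 1.05 CPM in KO-labelled libraries and 0.185 ± 0.225 CPM in WT libraries (SD, n = 2 each). Aldh1a1 and Aldh1a3 were the most abundant members in both genotypes, and the share of Aldh1a1 in their summed reads did not overlap between the groups. This pair was 1 of 28 pairs of members compared. The ratio of Aldh1a1 to each other gene tested did not overlap for 29.4% of genes. In level, every member except Cyp26b1 overlapped between genotypes. Of the 9 members, 8 passed the filter on low counts and 0 of these had an edgeR adjusted p under 0.05, where the background over all 12494 genes tested was 0%. At an unadjusted p under 0.05, 1 of 8 was higher and 0 of 8 lower, against 1.18% and 0.872% of all genes tested, or 2.06% in either direction. The KO-labelled pair was entirely above the WT pair for 1 of 8 members and entirely below it for 0 of 8, against 14.6% and 11.5% of all genes, or 26.0% in either direction. The 1 member in both counts was Cyp26b1, whose WT pair alone would not have passed the filter. Its place in these counts is therefore no support for a difference. With 2 libraries a group, an exact two-sided permutation test of a single value cannot go below p = 0.333. Log2 fold changes were positive for 5 of 8, with a median of 0.41, against 50.6% positive and a median of 0.01 over all genes tested. Without Per3 KO 2 the median was -0.12 for the members and -0.10 over all genes tested.

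**Figure D1:**
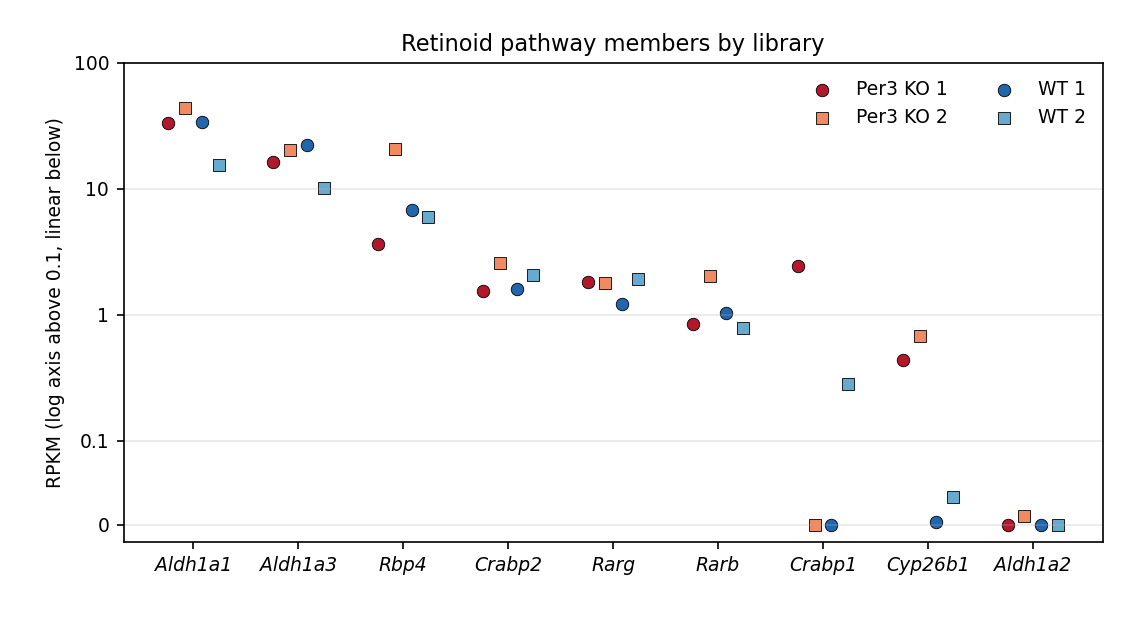
RPKM of the 9 members in each library (vertical axis logarithmic above 0.1 and linear below it; circles are replicate 1 and squares replicate 2). Aldh1a1 and Aldh1a3 stand at 10.1 to 44.0 RPKM in every library, and Cyp26b1 is the member whose KO-labelled pair lies wholly above the WT pair.

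Ordered by mean RPKM over the 4 libraries, the members ran Aldh1a1 (31.8), Aldh1a3 (17.2), Rbp4 (9.31), Crabp2 (1.95), Rarg (1.70), Rarb (1.18), Crabp1 (0.681), Cyp26b1 (0.290) and Aldh1a2 (0.0027). Aldh1a1 had a higher mean RPKM than 93.9% of all genes listed, and Aldh1a3 than 90.7%. Aldh1a1 exceeded Aldh1a3 in 4 of 4 libraries, although their ranges over libraries overlapped. Aldh1a3 exceeded Rbp4 in 3 of 4, with overlapping ranges, and in Per3 KO 2 Rbp4 stood at 20.7 and Aldh1a3 at 20.3 RPKM. Rbp4 exceeded Crabp2 in 4 of 4 libraries with no overlap, and Cyp26b1 exceeded Aldh1a2 in 4 of 4. The neighbours from Crabp2 down to Cyp26b1 did not keep one order: Crabp2 lay above Rarg, Rarg above Rarb and Rarb above Crabp1 in 3 of 4 libraries each, and Crabp1 above Cyp26b1 in 2 of 4.

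Among the enzymes of synthesis, Aldh1a1 (mm9 chromosome 19, 20676472 to 20717952) encodes a retinaldehyde dehydrogenase found in many adult tissues. It stood at 120 and 150 CPM in KO-labelled libraries and at 123 and 78.4 CPM in WT libraries. WT 2 was the low library, and Per3 KO 1 and WT 1 were nearly equal, so the groups overlapped. Its difference on the log2 scale was 0.43 ± 0.52 (SE, edgeR adjusted p = 1.00), and with a library left out it lay between 0.14 (without WT 2) and 0.79 (without WT 1). Its near-identical neighbour Aldh1a7 had at most 22.9 reads in any library, against 1824 to 10950 for Aldh1a1.

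Aldh1a3 (chromosome 7, 73535779 to 73572363) encodes a related enzyme with a high affinity for all-trans retinaldehyde. Its level was 98.6 and 116 CPM in KO-labelled libraries and 134 and 85.0 CPM in WT libraries. The WT pair enclosed both KO-labelled values, with a log2 fold change of -0.03 ± 0.52 (SE, edgeR adjusted p = 1.00). Its sign turned without Per3 KO 1 (0.07) and without WT 1 (0.34), and the RPKM scaling turned it too (0.26 to 0.28), so no direction was measured.

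Aldh1a2 (chromosome 9, 71063596 to 71144050), the main retinaldehyde dehydrogenase of the embryo and of mesothelium, was nearly unread. It had 0 and 3 reads in KO-labelled libraries and 0 and 0 in WT libraries, and was too low to test. A count of 0 allows a level of up to 0.0724, 0.0783 and 0.129 CPM in Per3 KO 1, WT 1 and WT 2. Such limits account for counting error alone, because these reads carry no molecular identifiers. Mesothelial markers Upk3b, Upk1b and Wt1 were at 0 reads in all libraries and Msln had at most 0.957. The keratin genes of the same list, which other epithelia also express, were read: Krt19 had 65 and 300 reads in KO-labelled and 287 and 50 in WT libraries, Krt18 had 1 and 197.9 in KO-labelled and 46 and 0 in WT libraries, and Krt8 had 0 and 71 in KO-labelled and 0 and 9.999 in WT libraries. The summed level of the 9 markers was 1.59 and 7.82 CPM in KO-labelled and 8.71 and 2.62 CPM in WT libraries, and its part in the Aldh1a2 reads was not tested.

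The balance of both expressed ALDH1A transcripts can be read within a library, where scaling between libraries plays no part. Aldh1a1 made up 54.9% and 56.5% of the reads of Aldh1a1 plus Aldh1a3 in Per3 KO 1 and Per3 KO 2, against 47.9% and 48.0% in WT 1 and WT 2. The exact binomial 95% intervals were 53.9 to 55.9 and 55.8 to 57.2 for the KO-labelled libraries, and 46.9 to 48.9 and 46.4 to 49.6 for the WT libraries. These intervals cover counting error only. On the per-length scale the RPKM of Aldh1a1 was 2.04 and 2.17 times that of Aldh1a3 in KO-labelled libraries, and 1.54 times in each WT library. The KO-labelled libraries were therefore both higher in this balance, by 0.45 in the log2 ratio, while libraries of 1 group differed by at most 0.09. The exact two-sided permutation p was 0.333, the smallest that 2 against 2 allow. Within-library ratios were computed for all 28 pairs of tested members, and 7 of them did not overlap between groups, the other 6 being ratios to Cyp26b1. In 3 of the 28 the gap between groups exceeded the largest difference within a group. These were Aldh1a1 with Aldh1a3, Crabp2 with Cyp26b1 and Cyp26b1 with Rarg. The share of all genes by that measure was not computed. None of the 28 can pass a threshold of 0.05 in this design, before or after adjustment. As a background, the ratio of Aldh1a1 to each other gene tested did not overlap between groups for 29.4% of 12493 genes.

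**Figure D2:**
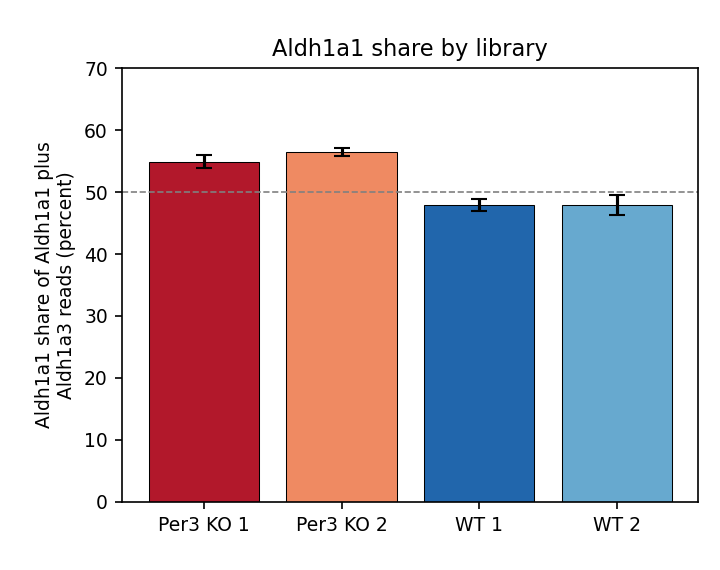
Share of Aldh1a1 among the reads of Aldh1a1 plus Aldh1a3 in each library, in percent, with exact binomial 95% intervals as bars (counting error only) and a dashed line at 50. Both KO-labelled libraries lie above the line, at 54.9 and 56.5, and both WT libraries below it, at 47.9 and 48.0. The line marks equal reads and not equal levels per length. In RPKM, Aldh1a1 was 2.04 and 2.17 times Aldh1a3 in KO-labelled libraries and 1.54 times in each WT library.

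Clearance enzymes came next. Cyp26b1 (chromosome 6, 84521938 to 84543740) had 135 and 346 reads in Per3 KO 1 and Per3 KO 2, against 0.9576 and 8 reads in WT 1 and WT 2. That is 3.26 and 4.75 CPM in KO-labelled libraries and 0.0261 and 0.344 CPM in WT libraries. Both KO-labelled libraries were high and both WT libraries were close to the detection limit, with the lower KO-labelled value 9.48 times the higher WT value. From summed reads, 481 against 9, the KO-labelled level was 28.8 times the WT level, with an exact 95% counting interval of 15.04 to 63.4 that leaves out the spread between libraries. The log2 fold change was 4.46 ± 1.75 (SE, edgeR unadjusted p = 0.0366, adjusted p = 1.00), rank 178 by p among the genes tested. It was 7.14 without WT 2 and 3.54 without WT 1, and it was positive in all 9 alternatives that could fit the gene, with adjusted p between 0.291 and 1. The KO-labelled pair of Cyp26b1 was enough to pass the filter on low counts, and its WT pair alone was not. Its place among the tested members is therefore no support for a difference. In absolute terms it was a rare transcript in both groups, at 0.442 and 0.680 RPKM in KO-labelled libraries and 0.0034 and 0.0335 RPKM in WT libraries.

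The other CYP26 hydroxylases did not take its place. Cyp26a1 had 0 and 2 reads in KO-labelled libraries and 1 and 0 in WT libraries, and Cyp26c1 had at most 0.995 reads in any library. Cyp26b1 was thus 98.1% and 98.7% of the summed CYP26 RPKM in KO-labelled libraries, while in WT libraries that sum was no more than 0.0335 RPKM.

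Some markers of other cells showed the same split between libraries as Cyp26b1, and others showed the reverse. The smooth muscle and pericyte genes Cnn1 and Rgs5 had 31.94 and 51.97 reads in Per3 KO 1 and 109.9 and 173 in Per3 KO 2, against 0.9467 and 2.955 in WT 1 and 0 and 0 in WT 2. Both passed the filter on low counts through the KO-labelled libraries alone. Of 8 mural markers, all tested, 3 had the KO-labelled pair wholly above the WT pair and 0 wholly below, against 14.6% and 11.5% of all genes tested. Cnn1 and Rgs5 are among those 3, and their place in this count is no support for a difference. The summed level of the 8 overlapped, at 29.0 to 36.7 CPM in KO-labelled and 19.1 to 38.4 CPM in WT libraries. The epithelial genes Cldn4 and Cdh1 had 38 and 19 reads in Per3 KO 1, 112 and 72 in Per3 KO 2, and 0 in both WT libraries, so both passed the filter through the KO-labelled libraries alone. Of 7 epithelial markers 4 were tested, and those 2 lay above and 1 below, against the same shares of all genes, with summed levels of 2.37 to 3.71 CPM in KO-labelled and 1.46 to 4.54 CPM in WT libraries, and Epcam had at most 1 read. Other markers split the reverse way. The leukocyte genes Cd52 and S100a8 had 28 and 10 reads in WT 1, 126 and 35 in WT 2, and 0 in both KO-labelled libraries. Both passed the filter through the WT libraries alone. Of 6 leukocyte markers tested, 1 lay above and 2 below, against the same shares of all genes. Of 8 skeletal muscle markers, all tested, 0 lay above and 4 below, against the same shares of all genes. Whether cells of any of these types had a part in the Cyp26b1 reads was not tested.

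**Figure D3:**
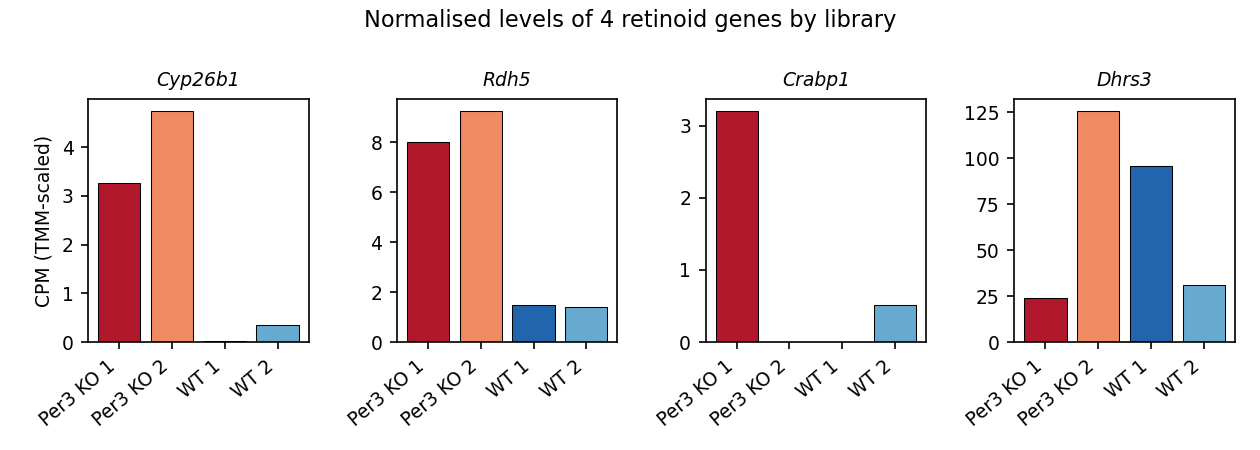
Normalised level (CPM) of Cyp26b1, Rdh5, Crabp1 and Dhrs3 in each library. Cyp26b1 and Rdh5 are high in both KO-labelled libraries, Crabp1 in Per3 KO 1 alone, and Dhrs3 in Per3 KO 2 and WT 1.

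Of the carrier proteins, Rbp4 (chromosome 19, 38191110 to 38199301) encodes the plasma carrier of retinol, made in quantity by hepatocytes. It stood at 6.06 and 32.4 CPM in Per3 KO 1 and Per3 KO 2 and at 11.3 and 13.8 CPM in WT 1 and WT 2. The KO-labelled pair differed by 5.34 times and enclosed both WT libraries. A log2 fold change of 0.62 ± 0.81 (SE, edgeR adjusted p = 1.00) resulted, which turned to -1.05 when Per3 KO 2 was left out and reached 1.35 when Per3 KO 1 was. Per3 KO 2 was also the library richest in hepatocyte transcripts. Albumin (Alb) had 1 and 30330 reads in Per3 KO 1 and Per3 KO 2 and 3290 and 183 reads in WT 1 and WT 2. Of 10 hepatocyte markers 9 were tested, and 9 had a positive log2 fold change, against 50.6% of all genes tested. The groups were separated for 0 of them, against 26.0% of all genes tested, and 0 were at 0 reads in all libraries. Transthyretin (Ttr), the partner of RBP4 in plasma, had 0.169 and 156 CPM in KO-labelled libraries and 24.8 and 11.7 CPM in WT libraries. The part of hepatocyte RNA in the Rbp4 level was not tested. Per3 KO 1, with 1 read of Alb, had 251 reads of Rbp4. Among markers of adipocytes, which also make RBP4, Adipoq had 2.83 and 4.45 CPM in KO-labelled and 5.17 and 8.86 CPM in WT libraries, Pck1 had 0.338 and 3.81 CPM in KO-labelled and 0.444 and 1.68 CPM in WT libraries, and Lep and Cidea were at 0 throughout. Cidec had 0 and 0 reads in KO-labelled and 5 and 43 in WT libraries. Retn had 10 and 0 reads in KO-labelled and 33 and 1 in WT libraries. Adrb3 had 1.992 and 56 reads in KO-labelled and 1.882 and 9.978 in WT libraries. Of 7 adipocyte markers found, 3 were tested, 2 positive and 1 negative. Without overlap, 0 of these lay above and 1, Adipoq, below, or 33.3% against 26.0% of all genes tested. The summed level of the 7 was 3.45 to 9.03 CPM in KO-labelled and 6.65 to 12.9 CPM in WT libraries.

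**Figure D4:**
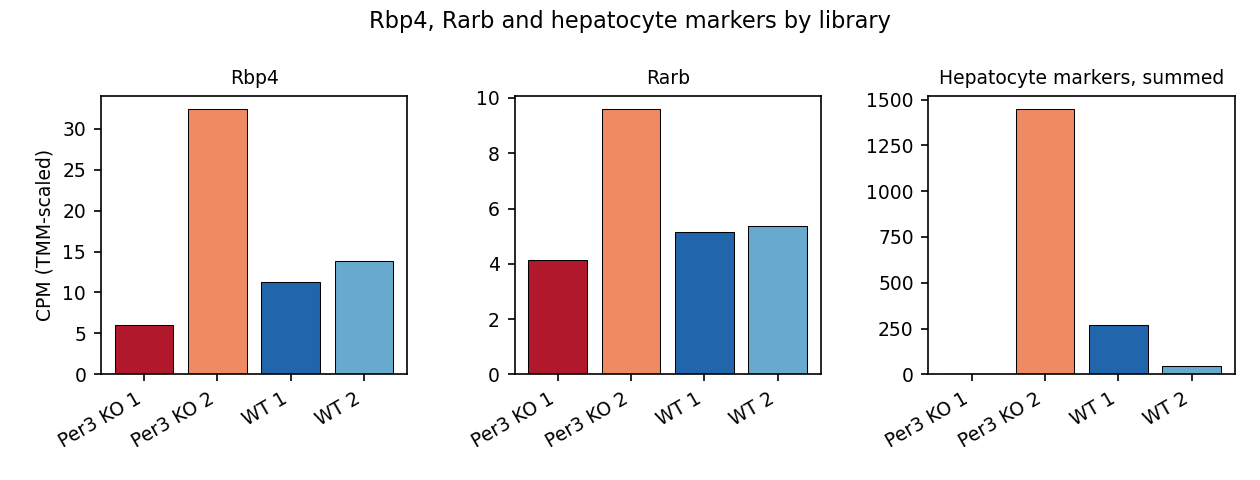
Normalised level (CPM) of Rbp4, of Rarb and of 10 hepatocyte markers summed, by library. Per3 KO 2 is the highest library in all panels, with 32.4 CPM of Rbp4, 9.59 CPM of Rarb and 1447 CPM of hepatocyte markers, while Per3 KO 1 is the lowest.

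Crabp2 (chromosome 3, 87752615 to 87757294), whose protein hands retinoic acid to nuclear RARs, was low and even. It had 2.46 and 3.88 CPM in KO-labelled libraries and 2.58 and 4.60 CPM in WT libraries, with each group spanning nearly the same range. Its log2 fold change, -0.18 ± 1.03 (SE, edgeR adjusted p = 1.00), turned sign without Per3 KO 1 (0.09), without WT 2 (0.30) and on RPKM (0.09 to 0.12).

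Crabp1 (chromosome 9, 54612615 to 54620916), a cytosolic carrier of retinoic acid linked to its breakdown, was read in a scattered way. It had 133 and 0 reads in Per3 KO 1 and Per3 KO 2 and 0 and 12 reads in WT 1 and WT 2. Each group held 1 library at 0, so Per3 KO 1 alone carried the difference. The log2 fold change was 2.65 ± 2.97 (SE, edgeR adjusted p = 1.00), at 1.63 without WT 1 and 9.34 without WT 2, and too low to test without Per3 KO 1.

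Both receptor genes among the members were modestly read. Rarb (chromosome 14, 17263354 to 17407724), itself a classical target that retinoic acid induces, had 4.15 and 9.59 CPM in KO-labelled libraries and 5.14 and 5.37 CPM in WT libraries. The WT pair was tight and Per3 KO 2 alone stood high. The difference of 0.39 ± 0.80 on the log2 scale (SE, edgeR adjusted p = 1.00) was -0.34 when Per3 KO 2 was left out and 0.85 when Per3 KO 1 was.

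Rarg (chromosome 15, 102065371 to 102076783), a receptor prominent in skin and skeletal tissue, had 8.36 and 7.78 CPM in KO-labelled libraries and 5.56 and 12.3 CPM in WT libraries. Here the KO-labelled pair was tight and lay between the WT values. The log2 fold change was -0.14 ± 0.71 (SE, edgeR adjusted p = 1.00), which turned to 0.54 without WT 2 and to 0.14 to 0.23 on RPKM.

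Set beside Rara, the third receptor gene, the summed RAR level per length was 3.22 and 4.09 RPKM in KO-labelled libraries and 3.57 and 2.94 RPKM in WT libraries. Rarg made up 56.8% and 44.0% of it in KO-labelled libraries and 34.1% and 65.7% in WT libraries. Rarb made up 26.2% and 50.2% in KO-labelled libraries and 29.2% and 26.7% in WT libraries. No receptor kept the same share in both libraries of the KO-labelled group, and the groups overlapped for each.

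**Figure D5:**
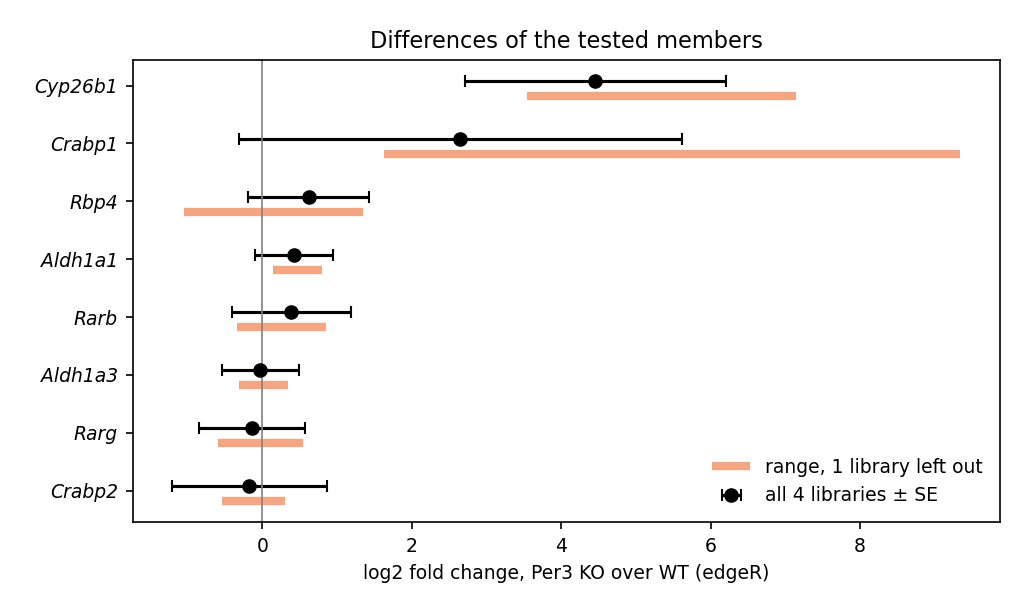
Log2 fold change of the 8 tested members, KO-labelled over WT (edgeR; points with standard errors), with the range reached when each library is left out in turn (bars; 3 values for Crabp1, which could not be fitted without Per3 KO 1). Cyp26b1 stays between 3.54 and 7.14, and the bars of Rbp4, Rarb, Aldh1a3, Rarg and Crabp2 cross 0.

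The upstream sequences of 3 members are shown because Cyp26b1 and Rarb are known to be induced by retinoic acid and Aldh1a1 is the most abundant member. They are RefSeq windows of build GRCm38.p6, from 250 bases before to 50 bases after the annotated start, written 5′ to 3′ on the gene's strand, and that build is not the mm9 of the gene coordinates above. Capitals mark the hexamer AGGTCA, its variant GGGTCA, a further variant AGTTCA and lastly GGTTCA, on either strand, which RAR and its partners bind, and any pair of them spaced as a direct repeat.
Cyp26b1, chr6:84593761-84594060, minus strand: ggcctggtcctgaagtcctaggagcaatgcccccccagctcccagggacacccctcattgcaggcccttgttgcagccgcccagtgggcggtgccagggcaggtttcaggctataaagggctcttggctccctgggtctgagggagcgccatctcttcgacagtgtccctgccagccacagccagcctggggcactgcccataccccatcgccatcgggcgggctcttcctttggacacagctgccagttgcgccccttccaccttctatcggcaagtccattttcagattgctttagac
Rarb, chr14:16575427-16575726, minus strand: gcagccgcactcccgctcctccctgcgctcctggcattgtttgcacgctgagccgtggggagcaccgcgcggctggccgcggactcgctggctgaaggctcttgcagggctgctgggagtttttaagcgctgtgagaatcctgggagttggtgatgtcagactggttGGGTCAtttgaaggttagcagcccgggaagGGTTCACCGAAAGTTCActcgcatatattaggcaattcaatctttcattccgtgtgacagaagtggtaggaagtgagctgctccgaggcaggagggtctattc
Aldh1a1, chr19:20601718-20602017, plus strand: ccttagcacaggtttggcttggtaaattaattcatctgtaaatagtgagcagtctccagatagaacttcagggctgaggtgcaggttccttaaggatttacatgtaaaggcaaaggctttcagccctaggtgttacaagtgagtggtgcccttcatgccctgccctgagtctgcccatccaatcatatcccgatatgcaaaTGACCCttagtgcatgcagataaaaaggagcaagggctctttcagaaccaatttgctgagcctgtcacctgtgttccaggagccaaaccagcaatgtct
In the Rarb window, 2 of the hexamers form a direct repeat spaced by 5 bases, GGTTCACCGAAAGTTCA, which starts 53 bases before the annotated start. Such a repeat, from any of the 4 hexamers on either strand, was found in 0.0974% of 32851 promoter windows of that length. The Aldh1a1 window printed holds 1 hexamer on the opposite strand, 49 bases before the start, and at least 1 hexamer was found in 43.7% of all windows. A second RefSeq window of Aldh1a1, chr19:20492333-20492632, holds 0. In the Cyp26b1 window none of these letters was found, nor was the E-box CACGTG that clock activators bind, which 7.15% of windows hold. Of the 9 members, 7 had at least 1 window, and no window of a member held a CACGTG. These matches describe letters only.

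The rest of the pathway was read from 6 lists that hold 65 genes in all, 64 of them in the tables and 48 tested. None passed over all genes tested. In these lists 25 log2 fold changes were positive and 23 negative, with a median of 0.05 against 0.01 over all genes. At an unadjusted p under 0.05 (edgeR), 1 of 48 was higher and 0 lower, against 1.18% and 0.872% of all genes tested. Without overlap, 8 lay above and 8 below, or 33.3% against 26.0% of all genes.

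In retinol transport and storage 9 of 14 genes were tested, 5 positive and 4 negative (median 0.08). Without overlap, 1 lay above and 2 below, or 33.3% against 26.0% of all genes tested. Retsat, retinol saturase, had 68.3 and 50.7 CPM in KO-labelled and 73.4 and 38.9 CPM in WT libraries. Dgat1, which can esterify retinol, had 11.2 and 9.95 CPM in KO-labelled and 9.81 and 32.2 CPM in WT libraries. The RBP4 receptor gene Stra6 had at most 1.99 reads in any library.

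Among retinol dehydrogenases and retinal reductases 15 of 19 were tested, 9 positive and 6 negative (median 0.20). Without overlap, 3 lay above and 2 below, or 33.3% against 26.0% of all genes tested. Rdh5, a retinol dehydrogenase best known from the retinal pigment epithelium, was the 1 gene of the 48 tested at an unadjusted p under 0.05. Over all genes tested that share was 2.06%. It stood at 7.99 and 9.26 CPM in KO-labelled libraries and at 1.49 and 1.42 CPM in WT libraries. Both pairs were tight and well apart, with a log2 fold change of 2.57 ± 0.85 (SE, edgeR unadjusted p = 0.0183, adjusted p = 1.00). This change stayed between 2.45 and 2.65 with any library left out. Over all 12 alternatives it ranged from 1.67 to 2.65. Rdh10, the retinol dehydrogenase that the embryo needs, had 4.08 and 8.52 CPM in KO-labelled and 8.04 and 16.8 CPM in WT libraries. Adh1, an alcohol dehydrogenase that also takes retinol, was the most abundant, at 161 and 186 CPM in KO-labelled and 123 and 140 CPM in WT libraries (log2 fold change 0.40 ± 0.51). Adh5 had 71.8 and 56.5 CPM in KO-labelled and 77.1 and 77.8 CPM in WT libraries. Dhrs3, a retinal reductase induced by retinoic acid, had 24.003 and 126 CPM in KO-labelled and 95.7 and 30.9 CPM in WT libraries. Its sign depended on the library, at -1.40 without Per3 KO 2 and 1.28 without WT 1. Rdh7 and Aldh8a1 had 0 and 876 reads and 0 and 413 reads in Per3 KO 1 and Per3 KO 2, against 45 and 0 and 21 and 0 reads in WT 1 and WT 2. The summed hepatocyte markers were also highest in Per3 KO 2 and WT 1, and their part in these reads was not tested.

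Fabp5, a fatty acid carrier that also binds retinoic acid, was the gene tested of 3 in the list of clearance and other carriers. It had 47.5 and 20.2 CPM in KO-labelled and 26.2 and 91.6 CPM in WT libraries. Of 5 receptor partners 2 were positive and 3 negative (median -0.10). Rxra, the retinoid X receptor with the highest level per length, had 41.6 and 38.5 CPM in KO-labelled and 17.3 and 35.6 CPM in WT libraries, the KO-labelled ones both being higher (log2 fold change 0.60 ± 0.54, 0.18 without WT 1). Rxrb had 4.01 and 4.84 CPM in KO-labelled and 4.51 and 16.6 CPM in WT libraries, and Ppard 6.42 and 3.81 CPM in KO-labelled and 7.15 and 3.83 CPM in WT libraries.

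All 11 coregulators were tested, 6 positive and 5 negative (median 0.01). The KO-labelled pair lay wholly above the WT pair for 3 and wholly below it for 4, or 63.6% apart against 26.0% of all genes. An unadjusted p under 0.05 was reached by 0 of the 11, against 2.06% of all genes tested. Ncoa2, a coactivator, had 20.5 and 26.5 CPM in KO-labelled and 11.8 and 14.5 CPM in WT libraries (log2 fold change 0.84 ± 0.54). Nrip1, a corepressor, had 19.7 and 20.2 CPM in KO-labelled and 23.3 and 34.0 CPM in WT libraries. Ncoa1 had 52.3 and 52.4 CPM in KO-labelled and 56.8 and 77.99 CPM in WT libraries, Ncor1 39.9 and 53.1 CPM in KO-labelled and 44.8 and 55.1 CPM in WT libraries, and Crebbp 45.5 and 53.3 CPM in KO-labelled and 37.7 and 36.8 CPM in WT libraries.

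Among genes that retinoic acid is known to induce, 7 of 13 were tested, 3 positive and 4 negative (median -0.29). The groups were separated for 0 of the 7, against 26.0% of all genes tested. This list leaves out Cyp26b1, Rarb and Dhrs3, which retinoic acid also induces and which are reported above. Their log2 fold changes were 4.46, 0.39 and 0.24. The groups were separated for Cyp26b1, and they overlapped for Rarb and Dhrs3, whose signs changed with a library left out. Rarres2, which encodes the adipokine chemerin, had 926 and 756 CPM in KO-labelled and 851 and 3857 CPM in WT libraries, with a log2 fold change of -1.48 ± 0.86 (SE) that was -0.01 when WT 2 was left out. It overlaps Lrrc61 by 1025 bases, and how reads of the shared stretch were counted is unknown here. Meis1 had 12.97 and 22.2 CPM in KO-labelled and 24.4 and 18.7 CPM in WT libraries, and Meis2 19.1 and 10.3 CPM in KO-labelled and 6.81 and 12.3 CPM in WT libraries. Stra8, Cdx1 and Cebpe were at 0 reads throughout.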

How the data were processed

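The deposited tables, 1 per library, hold an expected count of reads per gene and its RPKM, both made by the authors, per the file headers. Neither the deposited score (RPKM as a Z-score) nor the deposited ratio of RPKM to its root mean square was used. The submitters' processing notes name STAR 2.4.0, Cufflinks, Cuffdiff 2.2.1 and mm9 without roles. How reads were counted, the annotation and the strand setting: not given in the sources used here.

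Counts were rounded (8.85% to 12.0% of genes were not whole, tolerance 1e-09). Genes were kept by filterByExpr (minimum count 10, minimum total 15) and scaled by TMM, and the groups were compared with edgeR 4.0.16 (quasi-likelihood test, genotype only, prior count 0.125, two-sided, Benjamini-Hochberg over 12494 genes, threshold 0.05) in R 4.3.3. The floor for a count of 0 was 3 reads. Alternatives used DESeq2 1.42.0, limma 3.58.1 on log2(RPKM + 0.5, 0.1 or 1) where the mean RPKM reached 1, no filter, other size factors, the replicate number as a block, and each library left out. Fits with 3 libraries take the lone library to vary as the other group does. The pipeline was tested on simulated counts.

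The members and lists were chosen with earlier results of these data known. Other retinoid genes are named by rule, the 3 of highest mean CPM and the 2 of smallest p per list. Names outside that rule (Stra6, Cyp26a1, Cyp26c1, Rara, Rdh7, Aldh8a1, Aldh1a7, Stra8, Cdx1, Cebpe and the markers) were chosen after their values were seen. Of the marker lists whose signs are not given above, leukocyte genes were positive in 1 and negative in 5 of 6 tested. The same counts were 4 and 2 of 6 for endothelial, 0 and 8 of 8 for skeletal muscle and 6 and 2 of 8 for mural genes. They were 2 and 2 of 4 for epithelial, 2 and 1 of 3 for mesothelial and 3 and 7 of 10 for precursor genes. One gene of the retinol transport and storage list is counted with the list but is not reported here by name.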

Additional observations from a re-analysis of the deposited data

How the results depend on the processing

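No member passed an adjusted p of 0.05 in any of the alternatives that could fit it. The number of genes called over the whole series was 0 with edgeR, 14 with DESeq2, 4 with no filter, 1 with limma on log2(RPKM + 0.5), 1 with a pseudocount of 0.1 and 1 with a pseudocount of 1, and 1 to 4 with a library left out. At an unadjusted p under 0.05 edgeR counted 257 genes and DESeq2 488. Limma shifted the median of all genes by 0.27, 0.31 and 0.23 at pseudocounts of 0.5, 0.1 and 1, and on that scale Aldh1a3 was at 0.27, 0.28 and 0.26, Crabp2 at 0.10, 0.12 and 0.087 and Rarg at 0.18, 0.23 and 0.14, below the shift except for Aldh1a3 at a pseudocount of 1. Crabp1 and Cyp26b1 fell under the RPKM minimum there and were not fitted. With a library left out, log2 fold changes ranged from -0.31 to 0.34 for Aldh1a3, -1.05 to 1.35 for Rbp4, -0.54 to 0.30 for Crabp2, -0.34 to 0.85 for Rarb and -0.60 to 0.54 for Rarg, and the median of the tested members from -0.12 to 0.57. Aldh1a1 and Cyp26b1 kept a positive sign in every alternative that could fit them. Crabp1 did so in 8 alternatives, but it could not be fitted without Per3 KO 1, which held 133 of its reads. Its sign was therefore not put to that check. The causes of the sign changes were not tested.

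The replicate numbers are not stated to pair libraries. Deviations of same-numbered libraries from their group means correlated across genes with r = -0.15. The replicate block called 1 gene and put Aldh1a3 at 0.0023. The crossed block, added after seeing the data, called 2 genes and also put Aldh1a3 at 0.0023. Depth limits Aldh1a2, Crabp1 and, in WT libraries, Cyp26b1, each with 12 reads or fewer in at least 1 library.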

Other observations

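Likeness of pattern was measured as the Euclidean distance between log2(CPM + 0.5) values over the 4 libraries, each gene centred on its own mean. Among 6803 other genes with a mean of at least 10 CPM, those nearest to Aldh1a1 were Dse (distance 0.0772), Itfg3 (0.0820) and Itga5 (0.0855). Dse had 104 and 129 CPM in KO-labelled libraries and 99.8 and 65.2 CPM in WT libraries, with WT 2 low as for Aldh1a1. Among the tested members, Aldh1a1 and Aldh1a3 were nearest to each other (0.453), as were Crabp2 and Rarg (0.538). Rbp4 was nearest to Rarb (0.872) and Rarb to Crabp2 (0.726), while Crabp1 (2.203, to Rarg) and Cyp26b1 (2.47, to Aldh1a1) had no close partner among them. With 4 libraries such distances describe these libraries and carry no test.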
